A study of Mus musculus with 43 samples.

Results

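Hox genes encode homeodomain transcription factors that set positional identity along the body axis, and adult tissues keep part of the Hox pattern of the region in which they formed. The genes lie in clusters named HoxA to HoxD. Within a cluster the number of a gene gives its paralog group, with low numbers expressed towards the head and high numbers towards the tail and the tips of the limbs. Adult fat, muscle and skin are known to hold tissue-specific sets of Hox transcripts, whereas the forebrain is known to lack most of them.

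The members examined were the entries of the deposited gene table that name a single gene called Hoxa, Hoxb, Hoxc or Hoxd followed by a number. There were 31 of them among 42349 entries. The mouse annotation (GRCm38) holds 39 Hox genes in the clusters, and the other 8 were estimated jointly with neighbours in 4 joined entries, so they are not members. The clusters lie at chr6:52155590-52260880 (HoxA, 9 members), chr11:96194316-96368256 (HoxB, 10 members), chr15:102921103-103036852 (HoxC, 7 members) and chr2:74668310-74765142 (HoxD, 5 members).

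RNA sequencing covered brain, liver, skeletal muscle and inguinal white adipose tissue (WAT) of female mice at 15 months of age, from 43 libraries in 16 groups. Wild type mice (Irs1+/+) or global knockouts of insulin receptor substrate 1 (Irs1-/-) were fed ad libitum (AL) or held for 12 months at 30% dietary restriction (DR), which gave WTAL, WTDR, KOAL and KODR. Each group had 2 or 3 libraries, with 2 in WTAL in each tissue and in WTDR in WAT. For every entry and group the table holds a single pooled FPKM, a fragment count scaled to transcript length and sequencing output, with the authors' 95% interval, and no value per library was used, so the depth is unknown and the spread between mice enters through that interval alone.

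Irs1 itself did not follow the labels. In brain its level was 2.47 FPKM in WTAL, 1.62 in WTDR, 3.49 in KOAL and 4.14 in KODR. In liver it was 4.70, 3.29, 5.95 and 4.75 in the same order, and in skeletal muscle it was 5.72, 5.48, 6.31 and 5.82. In WAT it was 2.47 in WTAL, 6.56 in WTDR, 5.37 in KOAL and 2.58 in KODR. It was higher in the group labelled KO in 7 of 8 comparisons with the WT group on the same diet. In a Wald test on the authors' intervals, only the brain difference between KODR and WTDR passed the FDR used below. It was 1.35 (SE 0.40, adjusted p = 0.0766) on the log2 scale. The other differences did not pass, and most of the 8 therefore give a direction only. The WAT difference between KODR and WTDR went the other way, at -1.35 (SE 0.55). The labels do not say which part of the gene was deleted, and every genotype direction below is that of the labelled groups. The markers of each labelled tissue were highest in that tissue. The summed level of 6 adipocyte genes was 12936 to 20811 FPKM in WAT against 364 to 1310 in skeletal muscle, that of 6 skeletal muscle genes was 104871 to 178528 in muscle against 366 to 1036 in WAT, and the summed levels of 6 liver genes and 6 brain genes were highest in their own tissue. The muscle groups differed in genes of other tissues, since the 6 liver genes summed to 42.2 FPKM in WTAL, 1997 in WTDR, 123 in KOAL and 206 in KODR of skeletal muscle.

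The Hox genes fell into a sparse pair of tissues and a rich pair. The summed level of the 31 members was 0.579 to 4.90 FPKM over the 4 brain groups and 3.89 to 6.37 in liver. It was 90.4 to 117.7 in skeletal muscle and 129.8 to 210.2 in WAT. An FPKM of at least 1 in each of the 4 conditions was met by 19 members in WAT, 14 in skeletal muscle, and 0 in liver and brain. Over all single-gene entries the shares that met it were close across tissues, 30.0% in WAT, 28.0% in skeletal muscle, 27.4% in liver and 31.1% in brain. In bulk tissue a lower level can come from fewer cells of a type or from less RNA per cell, and these cannot be told apart.

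**Figure D1:**
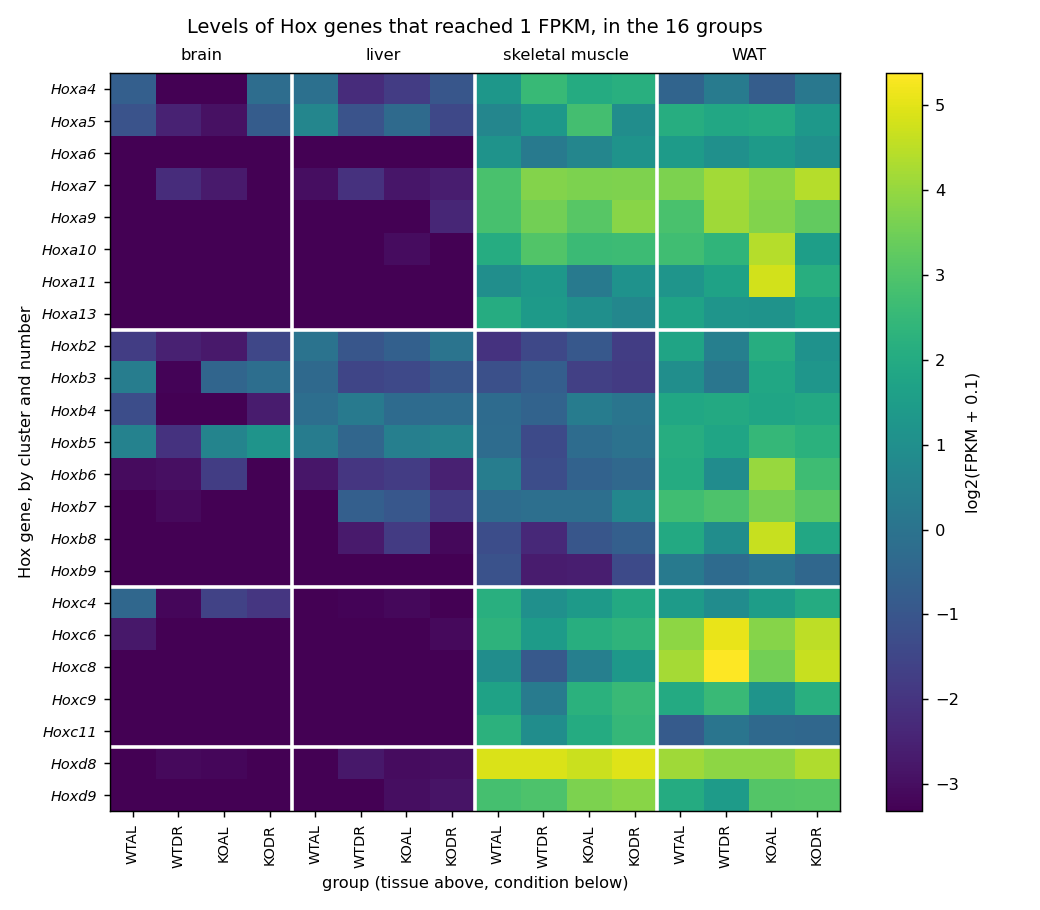
Level of the 23 Hox genes that reached 1 FPKM in at least 1 of the 16 groups as log2(FPKM + 0.1), with genes in rows by cluster and number, groups in columns, and white lines between clusters and tissues. Brain and liver are dark except for low-numbered HoxA and HoxB genes, skeletal muscle is light in HoxA, HoxC and HoxD, and WAT is light in HoxB as well.

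Of the members, 8 stayed under 1 FPKM in every group, among them Hoxb1, Hoxb13, Hoxc12, Hoxc13, Hoxd1, Hoxd12 and Hoxd13. Hoxb1 and Hoxd12 were listed at 0 in each of the 16 groups. The other 23 reached 1 FPKM in at least 1 group. These low members include the ends of the clusters that mark the hindbrain (Hoxb1) and the most caudal and distal structures (Hoxb13, Hoxd12, Hoxd13). Hoxa13, which belongs to the same last paralog group, was the exception, with 1.53 to 4.06 FPKM in skeletal muscle and 2.12 to 3.22 in WAT.

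In the brain 16 of 31 members were listed at 0 in all 4 groups. The members that could be seen were of low number. Hoxb5 was at 1.33 FPKM in WTAL, 0.143 in WTDR, 1.43 in KOAL and 2.18 in KODR. Hoxb3, which acts in the hindbrain, was at 1.19, 0.00601, 0.614 and 0.780. Hoxa4 was at 0.522 in WTAL, 0 in WTDR and KOAL, and 0.754 in KODR. For each of these genes the WTDR group was the lowest or tied for it, and for Hoxa4 and Hoxa5 both WTAL and KODR lay above both other groups. The HoxB members together made up 69.3% of the summed Hox level of the brain, and paralogs 9 to 13 made up 0.688%.

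Genes of hindbrain neurons moved with these brain values. Tph2, the serotonin-synthesizing enzyme of raphe neurons, was at 10.2 FPKM in WTAL, 0.449 in WTDR, 0.706 in KOAL and 6.86 in KODR. Slc6a5, the glycine transporter of brainstem and spinal neurons, was at 8.49, 0.457, 0.854 and 9.99. The summed level of the 7 hindbrain genes examined was 31.9 in WTAL, 3.56 in WTDR, 5.37 in KOAL and 36.2 in KODR, so it was low in the same WTDR group in which the Hox genes were low. In KOAL the hindbrain sum was low too, where Hoxb5 was not. The low in WTDR was not particular to these genes. The 6 brain genes summed to 5556, 2875, 6085 and 5743 FPKM in the same order, and 5 cerebellum genes to 91.3, 49.5, 67.6 and 162.7. Not every list was lowest there, since the 6 liver genes were lowest in KOAL. The part of hindbrain tissue in the brain Hox values was not tested.

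In liver 14 members were listed at 0 in all groups, and those seen were again low-numbered HoxA and HoxB genes. Hoxb5 was at 1.15, 0.638, 1.25 and 1.39 FPKM in WTAL, WTDR, KOAL and KODR. Hoxb4 was at 0.780, 1.095, 0.720 and 0.748. Hoxa5, known for its part in lung and trunk patterning, was at 1.499 in WTAL and 0.273 to 0.707 in the other groups. The HoxB members held 71.1% of the liver's summed Hox level, close to their share in brain, while HoxC held 0.191% and HoxD 0.814%.

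Liver and brain were also the pair of tissues in which the fewest tested Hox genes were called. Tissues were compared with limma on log2(FPKM + 0.1), with the 4 conditions as blocks and therefore as the replicates of a tissue. This scale understates the change of low genes, and 22 members had a mean of at least 0.5 FPKM and were tested. That mean was reached only through WAT or skeletal muscle by 20 of them. A small count between liver and brain was thus partly fixed in advance, and it is a description. Of these 22, 4 were higher in liver, 1 was lower, and 17 did not pass at an FDR of 10%. Over all genes 77.6% passed in that comparison. Hoxb4 was higher in liver by 2.53 (SE 0.40, adjusted p = 8.22e-05) on the log2 scale and Hoxb2 by 1.72 (SE 0.41, adjusted p = 0.00218). Hoxc4 was lower in liver by 1.46 (SE 0.40, adjusted p = 0.00486). A level of 0 in both tissues gives no difference, which held for 6 of the 22.

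Skeletal muscle kept HoxA, HoxC and HoxD members and hardly any HoxB. HoxA members made up 40.9% of the summed level of the members, HoxD members 38.6%, HoxC members 16.3% and HoxB members 4.21%. These shares leave out the joined entries. With them the median cluster sum over the 4 conditions was 73.3 FPKM for HoxC, 46.3 for HoxA and 44.4 for HoxD, so HoxC was the largest. Hoxd8 was the highest member in each muscle group, with 29.2 FPKM in WTAL, 29.7 in WTDR, 25.7 in KOAL and 30.8 in KODR. Hoxa7 was at 7.34, 13.4, 12.6 and 12.98, and Hoxa9, a factor also known from blood progenitors, was at 7.18, 11.4, 8.60 and 14.03. These members stand in the middle of their clusters, and each was well above 1 FPKM in the 4 conditions.

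WAT kept members of every cluster, in proportions that differed between conditions. HoxA members summed to 39.7 FPKM in WTAL, 53.1 in WTDR, 85.5 in KOAL and 46.7 in KODR. HoxC members summed to 40.03, 84.1, 30.8 and 57.3, HoxB members to 28.3, 21.3, 70.7 and 32.0, and HoxD members to 21.7, 17.5, 23.1 and 28.5. Among the members HoxC was thus above HoxA in WTDR and KODR, close to it in WTAL and below it in KOAL, where HoxA and HoxB were at their highest. These sums leave out the joined entries. With them the median over the conditions was 72.9 FPKM for HoxC and 52.4 for HoxA, against 48.7 and 49.9 without. Over the 4 conditions paralogs 4 to 8 made up 70.9% in WAT and 60.9% in skeletal muscle, and paralogs 9 to 13 made up 26.0% and 38.4%. Hoxc8 was at 18.3 FPKM in WTAL, 41.5 in WTDR, 11.5 in KOAL and 25.3 in KODR, and Hoxc6 was at 14.8, 34.0, 13.7 and 23.0. In both of these HoxC genes the order of the groups was the same, with DR above AL within each genotype. These genes share a locus, where genes can trade reads, so the same order in both does not count as separate observations. The authors' intervals are wide for them and overlap between diets (Hoxc8 in WTDR runs from 0 to 96.0), and no difference between conditions was called.

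Both rich tissues stood far above both sparse ones. The minimum mean of 0.5 FPKM fixed part of this, since 20 of the 22 tested members reached it only through WAT or skeletal muscle, so the counts that follow are descriptions. In WAT 21 of 22 tested members were higher than in liver and 0 lower, against 61.6% of all genes called in either direction. In WAT 22 of 22 were higher than in brain, against 72.7% of all genes. In skeletal muscle 18 of 22 were higher than in liver and 1, Hoxb2, was lower (by 1.14, SE 0.41, adjusted p = 0.0310), against 62.6% of all genes. In skeletal muscle 19 of 22 were higher than in brain and 0 lower, against 73.5%. The median log2 difference of the members was 4.78 for WAT against liver, where that of all genes tested was 0.18, and 5.25 for WAT against brain, where that of all genes was 0.02. The 3 members that did not pass between muscle and brain were Hoxb2, Hoxb3 and Hoxb5.

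The comparison of WAT with skeletal muscle separated the clusters. In it 15 of 22 members passed, 11 higher in WAT and 4 higher in muscle, against 59.7% of all genes, so the share of members called was not far above the background. The 7 tested HoxB members were each higher in WAT. Of these Hoxb2, Hoxb3, Hoxb6, Hoxb7 and Hoxb8 reached the minimum mean only through WAT. Of the HoxC genes Hoxc8 did so only through WAT and Hoxc11 only through muscle. The count is therefore a description, and no p-value is given for these genes in this comparison. With no minimum 17 of 29 members passed. Hoxb8, a trunk-level gene, was at 0.102 to 0.525 FPKM in muscle and 1.83 to 25.0 in WAT, with a log2 difference of 3.67 (SE 0.54). Hoxb7 was at 0.740 to 1.55 in muscle and 6.44 to 12.1 in WAT, a difference of 3.06 (SE 0.43). Hoxb5 and Hoxb4 were higher in WAT by 2.63 (SE 0.36) and 2.00 (SE 0.40). For Hoxb2 to Hoxb8 the lowest WAT group lay above the highest muscle group.

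The HoxC members did not all go the same way, and their differences did not order along the cluster. Hoxc8 was higher in WAT by 3.99 (SE 0.45), from 0.441 to 2.37 FPKM in muscle and 11.5 to 41.5 in WAT. Hoxc6 was higher in WAT by 2.27 (SE 0.32, adjusted p = 7.33e-05). Hoxc11, a gene of the lower trunk and hindlimb, went the other way. It was at 1.84 to 5.40 FPKM in muscle against 0.470 to 0.948 in WAT, a difference of -2.31 (SE 0.36). Hoxc4 and Hoxc9 differed by -0.16 (SE 0.40) and 0.28 (SE 0.44) and did not pass. Thus members of a single cluster were higher in different tissues.

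Of the tested HoxA members 3 of 8 passed between WAT and muscle, and of the HoxD members both did. Hoxa4, the anterior exception, was higher in muscle, with 2.36 to 5.77 FPKM against 0.491 to 1.13 in WAT (log2 difference -2.21, SE 0.62, adjusted p = 0.00945). Hoxa5, Hoxa6, Hoxa9, Hoxa10 and Hoxa13 did not pass, with differences from 0.14 to 0.44, and Hoxa7 was higher in WAT by 0.52 (SE 0.24, adjusted p = 0.0851). Hoxd8 and Hoxd9 were higher in muscle by 0.78 (SE 0.19) and 0.90 (SE 0.29). Hoxa11 was called higher in WAT by 1.53 (SE 0.59, adjusted p = 0.0421), but that call rested on 1 group. Without the KOAL condition the Hoxa11 difference was 0.54 (SE 0.26) and was not called, while that of Hoxb8 was 3.02 (SE 0.42). The count of members called fell from 15 to 14.

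**Figure D2:**
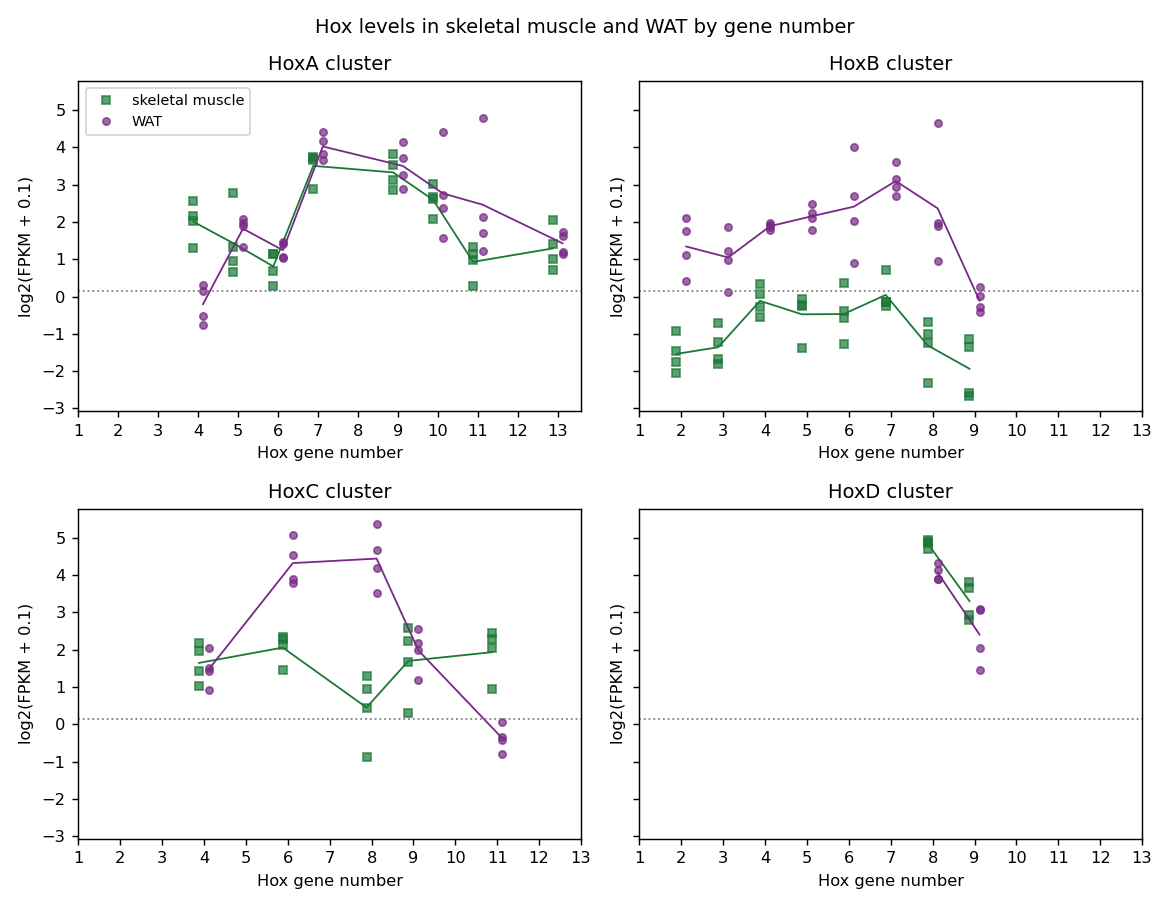
Levels of the same 23 genes along each cluster in skeletal muscle (green squares) and WAT (purple circles), with log2(FPKM + 0.1) against the gene number, 1 point per condition, lines through the means of the 4 conditions and a dotted line at 1 FPKM. The profiles lie close together in HoxA beyond Hoxa4, and WAT lies above muscle from Hoxb2 to Hoxb8. The HoxC profiles cross between Hoxc4 and Hoxc6 and again between Hoxc9 and Hoxc11.

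**Figure D3:**
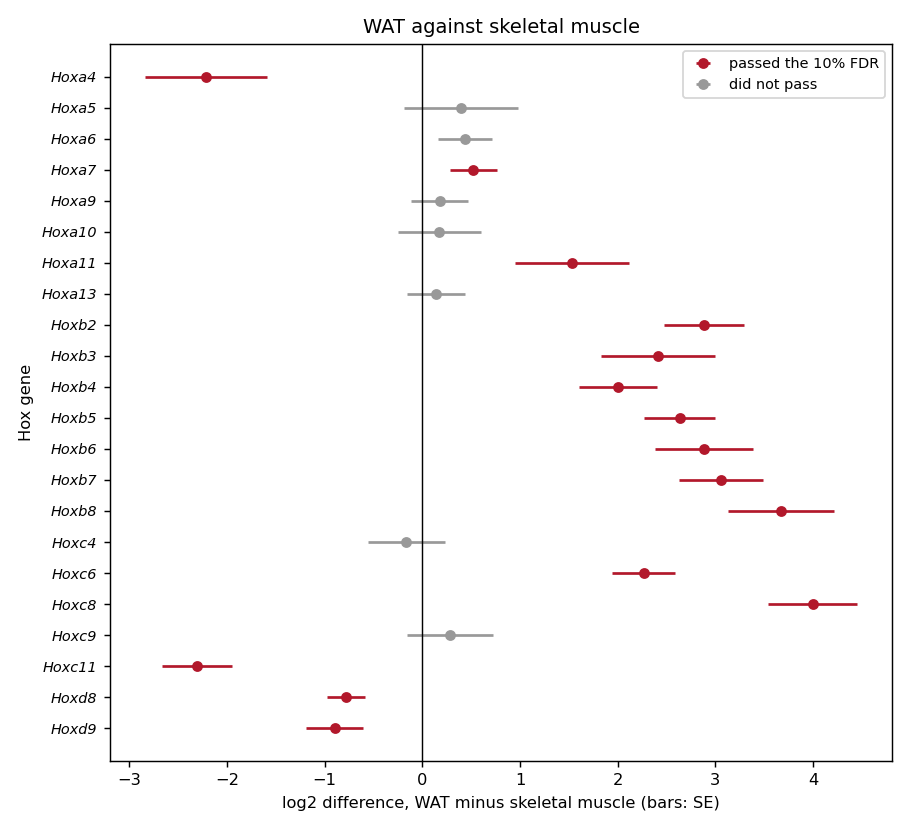
Difference in log2(FPKM + 0.1) between WAT and skeletal muscle for the 22 tested Hox genes, with bars of 1 SE, red where the gene passed an FDR of 10%. The 7 HoxB genes sit to the right of 0, while Hoxa4, Hoxc11, Hoxd8 and Hoxd9 sit to the left.

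When each condition was tested on its own with the authors' intervals, far fewer tissue differences remained. Hoxb7 and Hoxd9 passed in all 4 conditions between WAT and muscle, and 0 members did so in the other 5 pairs of tissues. A gene listed at 0 in a tissue cannot be tested in this way. Of the 153 member values of at least 1 FPKM, 73 had a lower bound of 0. Relative to the level, the intervals of Hoxa6, Hoxc6, Hoxc9 and Hoxa4 were the widest among the members and that of Hoxd9 the narrowest, by the median over such values. Hoxa4, Hoxa5, Hoxa6 and Hoxa7 shared a locus, as did Hoxc6, Hoxc8 and Hoxc9, Hoxb2 and Hoxb3, and Hoxb5 and Hoxb6. All of the widest named here lay in such loci, where genes can trade reads. A wide interval makes a call less likely, so members without a call between conditions cannot be read as unchanged.

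Between conditions 4 Hox genes were called. Over 4 comparisons in 4 tissues, 9 of 165 tests of members passed an FDR of 10% in a Wald test on the authors' intervals. Of all genes 0.203% to 2.23% were called per comparison and tissue. For the members 11 of 16 comparisons had no call. The genes were Hoxd9, Hoxa10, Hoxa11 and Hoxb8, and each had a locus that no other member shared. Their upstream sequences are shown because these are the members called between conditions, and to place them in the clusters.

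Each line gives the 250 bases before the RefSeq start of transcription (GRCm38.p6), 5′ to 3′ on the gene's strand, with CpG dinucleotides in capitals. Hoxd9 is read from chr2:74697513-74697762 on the plus strand, Hoxa10 from chr6:52240855-52241104 and Hoxa11 from chr6:52245811-52246060 on the minus strand, and Hoxb8 from chr11:96281655-96281904 on the plus strand.
Hoxd9: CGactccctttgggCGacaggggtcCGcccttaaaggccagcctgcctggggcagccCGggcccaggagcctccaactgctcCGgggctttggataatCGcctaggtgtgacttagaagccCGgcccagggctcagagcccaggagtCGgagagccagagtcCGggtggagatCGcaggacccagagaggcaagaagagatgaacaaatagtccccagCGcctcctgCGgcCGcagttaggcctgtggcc
Hoxa10: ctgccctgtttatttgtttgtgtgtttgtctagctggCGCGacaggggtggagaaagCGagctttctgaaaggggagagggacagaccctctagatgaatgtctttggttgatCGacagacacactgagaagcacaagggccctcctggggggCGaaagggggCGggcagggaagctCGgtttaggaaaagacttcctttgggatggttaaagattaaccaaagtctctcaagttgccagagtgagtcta
Hoxa11: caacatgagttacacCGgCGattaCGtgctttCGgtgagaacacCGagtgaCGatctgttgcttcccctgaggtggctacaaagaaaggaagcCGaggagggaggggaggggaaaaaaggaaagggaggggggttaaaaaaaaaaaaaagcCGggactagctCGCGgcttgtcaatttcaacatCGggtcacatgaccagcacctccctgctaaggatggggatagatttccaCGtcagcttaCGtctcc
Hoxb8: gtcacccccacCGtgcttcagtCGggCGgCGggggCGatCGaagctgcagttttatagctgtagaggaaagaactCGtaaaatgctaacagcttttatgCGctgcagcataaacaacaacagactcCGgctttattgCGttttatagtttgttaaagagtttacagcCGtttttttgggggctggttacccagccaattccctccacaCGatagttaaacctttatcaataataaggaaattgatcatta

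Hoxa10 has a second RefSeq start, and the stretch printed is that of the start farther upstream. The 250 bases before the other start, chr6:52234940-52235189, hold 20 CpG and 1 TATAAA match. The printed stretches hold 13 CpG in Hoxd9, 7 in Hoxa10, 13 in Hoxa11 and 12 in Hoxb8. RefSeq promoters were found for 16 of the members (17 starts, with 2 for Hoxa10), and their median was 13 CpG, where that of 32851 promoters of all genes was 6. The TATA box letters TATAAA, searched on both strands, occurred in Hoxb8 and in 3 of the 17 member promoters (17.6%), against 12.4% of all promoters. The letters TGATNNAT, a Hox and Pbx binding pattern, occurred in 2 of the 17 (11.8%), Hoxb8 among them, against 7.68% of all promoters. These are matches of letters and not sites.

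Hoxd9 was higher in the groups labelled KO than in WT in both tissues that express it and under both diets. In skeletal muscle it was at 6.88 FPKM in WTAL, 7.55 in WTDR, 12.6 in KOAL and 14.01 in KODR. In WAT it was at 4.00, 2.64, 8.24 and 8.36. In each tissue both labelled KO groups lay above both WT groups, and the authors' intervals of KO and WT groups on the same diet did not overlap. The log2 difference in skeletal muscle was 0.87 (SE 0.23, adjusted p = 0.0328) under AL and 0.89 (SE 0.09, adjusted p = 2.40e-21) under DR, folds of 1.82 and 1.86. In WAT it was 1.04 (SE 0.26, adjusted p = 0.00686) under AL and 1.66 (SE 0.19, adjusted p = 3.59e-15) under DR, folds of 2.06 and 3.17.

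Hoxd9 acts in lumbar and hindlimb patterning. It was called in 4 of the 4 genotype comparisons in these tissues, and the AL and DR comparisons share no group. The study's methods give a single set of mice per condition for all tissues, so the muscle and WAT calls may come from the same animals. In brain it was listed at 0 in all groups and in liver it reached 0.0380 FPKM at most. Its neighbour Hoxd8 did not follow it, with 17.6, 14.9, 14.8 and 20.1 FPKM in WAT of WTAL, WTDR, KOAL and KODR. In skeletal muscle the summed level of 5 red blood cell genes also separated the labelled genotypes, at 950 in WTAL, 1553 in WTDR, 11582 in KOAL and 20283 in KODR, whereas in WAT it was 6863, 12269, 4297 and 21030 and did not. In WAT the sums of other lists did separate them. The 6 skeletal muscle genes summed to 523 FPKM in WTAL, 366 in WTDR, 1036 in KOAL and 620 in KODR, and the 6 mammary epithelium genes to 16.9, 25.9, 127 and 103. Of the muscle genes Ckm, Myh4 and Tnni2 were also called higher in WTDR than in WTAL, so these genes did not divide by genotype alone. In skeletal muscle 5 of 6 liver genes were called lower and 3 of 6 adipocyte genes higher in KODR than in WTDR. The part of these in the Hoxd9 differences was not tested. The genotype difference of Hoxd9 changed from AL to DR by 0.02 (SE 0.25) in muscle and 0.62 (SE 0.32) in WAT, neither of which passed.

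Hoxa10, Hoxa11 and Hoxb8 shared another pattern, a high level in WAT of KOAL alone. Hoxa10, needed for uterine and hindlimb-level patterning, was at 6.50 FPKM in WTAL, 5.09 in WTDR, 21.2 in KOAL and 2.87 in KODR. Hoxa11, which acts in the uterus, kidney and forearm, was at 2.25, 3.16, 27.6 and 4.27. Hoxb8 was at 3.84, 1.83, 25.0 and 3.61. In each of the 3 genes the KOAL interval lay above the intervals of the other conditions, except that the Hoxb8 interval in KOAL began at 6.92 and reached into that of KODR.

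Against WTAL the KOAL value was higher by 1.71 (SE 0.34, adjusted p = 0.000134) for Hoxa10, by 3.62 (SE 0.72, adjusted p = 0.000165) for Hoxa11 and by 2.70 (SE 0.72, adjusted p = 0.0212) for Hoxb8, on the log2 scale. Against KOAL the KODR value differed by -2.89 (SE 0.35, adjusted p = 6.03e-13) for Hoxa10 and by -2.69 (SE 0.69, adjusted p = 0.0228) for Hoxa11. Hoxb8 differed by -2.79 (SE 0.97, adjusted p = 0.336) and did not pass. Hoxb6, next to Hoxb8, was at 4.01, 1.77, 16.2 and 6.33 FPKM with the same highest group, and its difference of 2.01 (SE 0.82, adjusted p = 0.536) did not pass. In skeletal muscle Hoxa11 and Hoxb8 showed no such peak, at 1.11 and 0.403 FPKM in KOAL.

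**Figure D4:**
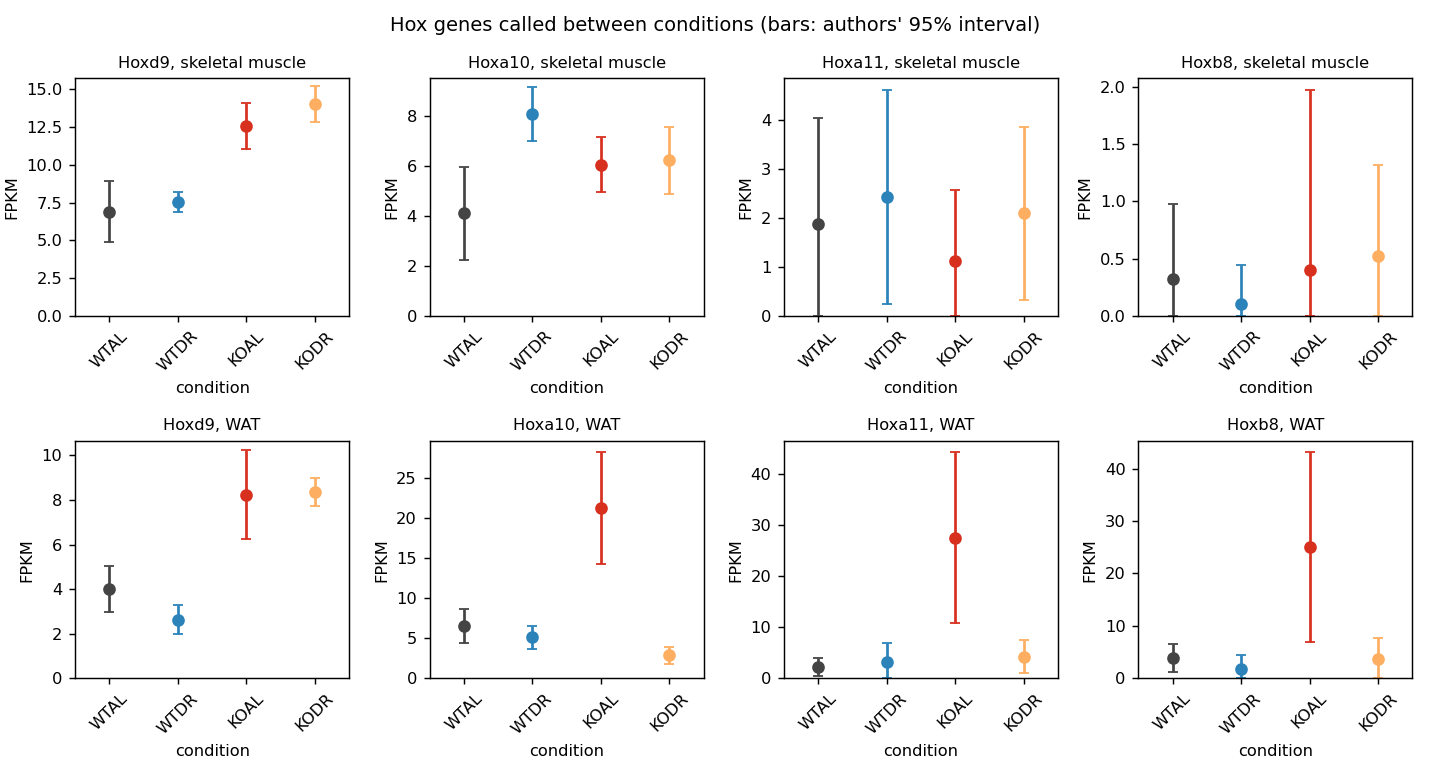
FPKM of Hoxd9, Hoxa10, Hoxa11 and Hoxb8 in the 4 conditions, in skeletal muscle (top) and WAT (bottom), with bars for the authors' 95% interval. Both labelled KO groups stand above WT for Hoxd9 in both tissues, and KOAL stands alone for the other 3 genes in WAT.

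Genes of other tissues were high in the same WAT group. The regulators of the female reproductive tract were chosen after the Hox values had been seen. Among them Msx1 was at 1.84 FPKM in WTAL, 2.37 in WTDR, 40.2 in KOAL and 3.14 in KODR. Pax8, a factor of the kidney and the reproductive tract, was at 0 in both WT groups, 12.97 in KOAL and 1.94 in KODR. The progesterone receptor Pgr was at 0.0920, 0.554, 3.76 and 0.297. All 8 genes of that list were highest in KOAL, and their summed level was 8.51, 16.8, 92.3 and 20.2. Msx1, Pgr and Esr1 were called between KOAL and WTAL.

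Of the mammary epithelium genes 4 of 4 tested were called higher in KOAL than in WTAL in WAT, namely Krt8, Krt18, Krt19 and Epcam. Krt5 and Krt14 of that list were not tested there, and 4 of the 6 listed genes were highest in KOAL. Between KODR and WTDR 1 of 5 tested, Krt18, was called, and it was higher in KODR. Epcam was at 0.255 FPKM in WTAL, 0.0599 in WTDR, 10.8 in KOAL and 5.31 in KODR, and Krt8 was at 2.57, 3.04, 24.9 and 17.8. Of the 4 smooth muscle genes 3 were highest in KOAL, among them Myh11 at 16.01, 15.5, 50.4 and 21.1. The summed level of the 4 was highest in WTAL instead, at 668 FPKM, against 158 in WTDR, 524 in KOAL and 394 in KODR. Skeletal muscle genes differed as well, with 4 of 6 called higher in KOAL than in WTAL and a median log2 difference of 5.91. Among them Myh4, a fast myosin, was at 0.0699 FPKM in WTAL, 20.6 in WTDR, 55.0 in KOAL and 30.3 in KODR, so that WTAL stood apart, and 3 of 6 were also called higher in WTDR than in WTAL. Of the 4 kidney and urogenital genes, Umod, Slc34a1 and Upk3a were at most 0.0412 in any WAT group, unlike Pax8, given above. The table cannot say from which of the 3 libraries of the KOAL group these values came, and the part of other tissue in the Hoxa10, Hoxa11 and Hoxb8 values was not tested.

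**Figure D5:**
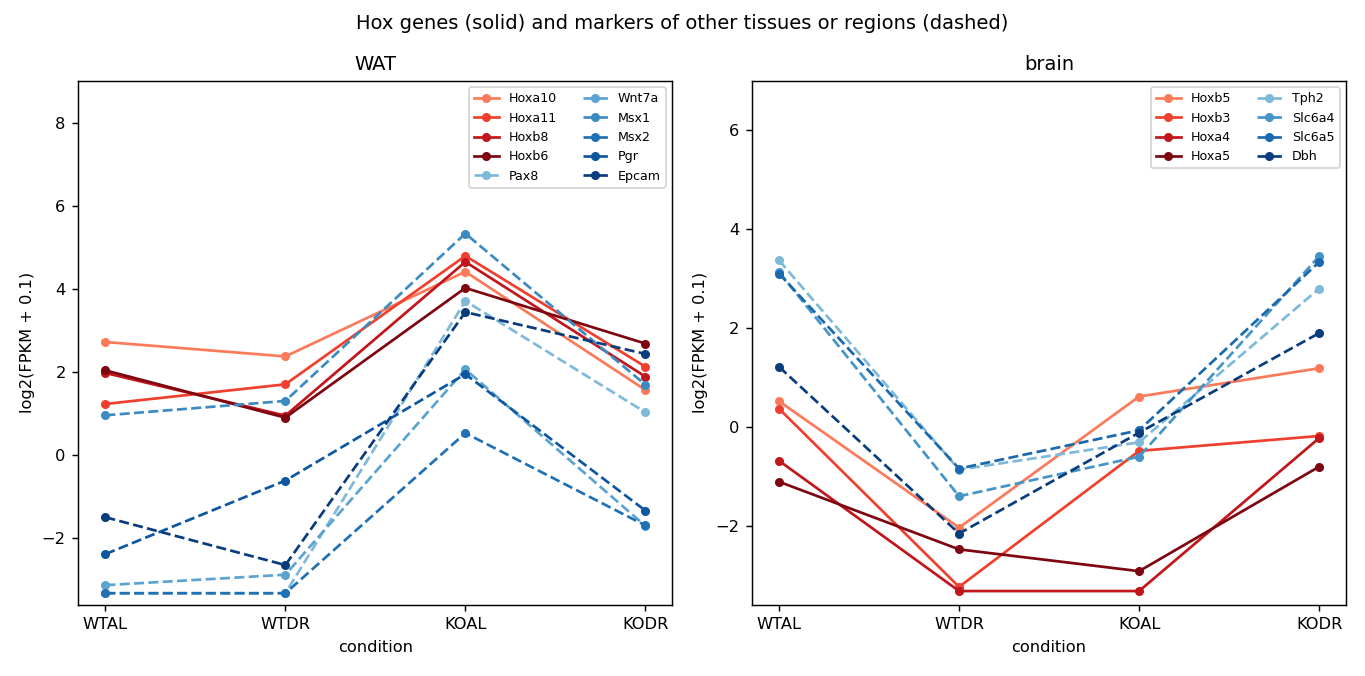
Hox genes (solid red lines) and genes of other tissues or regions (dashed blue lines) in the 4 conditions as log2(FPKM + 0.1), for WAT on the left and brain on the right. In WAT the Hox genes and Msx1, Pax8, Wnt7a, Msx2, Pgr and Epcam peak in KOAL, and in brain WTDR is the low point of Tph2, Slc6a4, Slc6a5 and Dbh and of Hoxb5 and Hoxb3.

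Set against all genes, the counts were as follows. For KOAL against WTAL, 4 of 21 tested members were called in WAT, all higher (1.29% of all genes), 1 of 17 in skeletal muscle (0.681%), and 0 of 2 in each of liver (0.316%) and brain (0.203%). For KODR against WTDR, 1 of 21 was called in WAT (0.283%), 1 of 16 in muscle (2.23%), 0 of 2 in liver (0.288%) and 0 of 1 in brain (1.16%). For KODR against KOAL, 2 of 21 were called in WAT, both lower (0.707%), 0 of 17 in muscle (0.5%), and 0 of 1 in each of liver (0.611%) and brain (0.365%). Of the members in those comparisons with 0 calls, Hoxb5 in brain between KODR and WTDR was the 1 with an unadjusted p under 0.05.

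For WTDR against WTAL the Wald test called 0 members in WAT (0.57% of all genes), muscle (1.4%), liver (0.236%) and brain (0.224%). At an unadjusted p under 0.05 there were 3, namely Hoxd9 in WAT, Hoxa10 in muscle and Hoxb5 in brain. Hoxa10 in muscle was at 4.11 FPKM in WTAL, 8.08 in WTDR, 6.04 in KOAL and 6.22 in KODR, with a DR difference of 0.98 (SE 0.34, adjusted p = 0.225) in WT. The intervals of these WTAL and WTDR values, which end at 5.97 and begin at 7.01, did not overlap. In the same comparison 5 of 6 liver genes were called higher in muscle, and their part in the Hoxa10 value was not tested. Hoxb5 in brain differed between KODR and WTDR by 3.92 (SE 1.30, adjusted p = 0.162), which did not pass although the intervals were apart.

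The calls rest on the normal distribution. With a t distribution on the number of libraries instead, 0 members passed in any of the comparisons between conditions.

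Whether an effect differed between diets or tissues was tested as well. The change of the genotype difference from AL to DR passed for 1 of 22 members in WAT (0.121% of all genes), 0 of 18 in muscle (0.371%), 0 of 3 in liver (0.086%) and 0 of 2 in brain (0.396%). That member was Hoxa10, at -2.53 (SE 0.47, adjusted p = 0.000127). For effects in WAT less those in muscle, 1 of 22 members passed for KODR against KOAL (0.176%), again Hoxa10. None passed for KOAL against WTAL (0.29%), WTDR against WTAL (0.324%) or KODR against WTDR (0.155%), where Hoxd9 was at 0.77 (SE 0.21, adjusted p = 0.128). In the other 20 comparisons of effects between tissues 0 members passed, with 1 to 12 tested and 0.0137% to 0.437% of all genes called.

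The partners of Hox proteins were examined beside the Hox genes. TALE homeodomain proteins of the Pbx, Meis and Pknox families bind DNA together with Hox proteins. Of 9 such genes, 7 had an entry of their own, and 6 of these 7 were lower in WAT than in brain and 0 higher, where 72.7% of all genes were called in either direction. Meis2 was at 35.8, 40.5, 51.6 and 29.0 FPKM in brain of WTAL, WTDR, KOAL and KODR and at 5.59, 6.70, 7.85 and 8.397 in WAT (WAT minus brain -2.43, SE 0.29). Its muscle values were 0.597 to 1.35. Between WAT and muscle 5 of 7 were higher in WAT, and Pknox2 was higher in muscle, at 10.9 to 12.1 FPKM against 0.658 to 2.44, where 59.7% of all genes were called. Between conditions the Wald test called 0 of 94 tests of these genes, and 0 had an unadjusted p under 0.05. Over all genes 0.203% to 2.23% were called per comparison, and 1.5% to 7.5% had an unadjusted p under 0.05.

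Other genes of positional identity were examined as well. Tbx15, a T-box factor of limb and trunk mesenchyme, was at 73.9 FPKM in WTAL, 100.5 in WTDR, 78.2 in KOAL and 85.3 in KODR of skeletal muscle. Of the 30 genes of that list 28 had an entry of their own. Between conditions 5 of 147 tests passed, 4 higher and 1 lower, where 0.203% to 2.23% of all genes were called per comparison. The calls in brain included En2, a midbrain and hindbrain gene, at 1.07, 0.350, 0.327 and 4.62 FPKM. It was higher in KODR than in WTDR by 3.72 (SE 0.67, adjusted p = 1.85e-05).

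Of the 17 Polycomb, Trithorax and related genes that keep Hox genes silent or active, 0 of 265 tests passed between conditions with the Wald test. An unadjusted p under 0.05 was met by 2. Over all genes 0.203% to 2.23% were called per comparison, and 1.5% to 7.5% had such a p. Of 16 genes of retinoic acid, a signal that induces Hox genes in embryos, 3 of 182 tests passed, against the same share of all genes. In WAT Cyp26a1, which degrades retinoic acid, was higher in KOAL than in WTAL by 4.23 (SE 1.01, adjusted p = 0.00433), and Aldh1a1, which makes it, was lower, at -1.77 (SE 0.44, adjusted p = 0.00779). The third was Aldh1a1 in brain, higher in KODR than in WTDR by 1.41 (SE 0.32, adjusted p = 0.00361).

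Inside the clusters lie 34 further entries, mostly noncoding. The joined entry that holds Hoxa11os, an RNA antisense to Hoxa11, was at 14.8 FPKM in WTAL, 23.7 in WTDR, 80.5 in KOAL and 17.8 in KODR of WAT, with the same highest group as Hoxa11. Exons of the pair overlap on opposite strands, and strand-aware counting is not given in the sources used here, so their reads may not be separable. In muscle that entry was at 4.24, 33.5, 2.43 and 16.3. The joined entry that holds Hotairm1, a noncoding RNA at the anterior end of HoxA, was at 1.65, 0.908, 13.5 and 35.8 FPKM in liver, and KODR was higher than KOAL there by 1.40 (SE 0.22, adjusted p = 1.02e-07). In muscle that entry was higher in KODR than in WTDR by 1.01 (SE 0.32, adjusted p = 0.0855). In the same comparison Gm27477, another of these entries, was lower, at -1.45 (SE 0.38, adjusted p = 0.0101). These were the 3 calls in 76 tests of such entries, where 0.203% to 2.23% of all genes were called per comparison.

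Each of the 4 joined entries with the remaining Hox genes was higher in every WAT and muscle group than in any liver or brain group. The entry of Hoxc5 and Hoxc10 was at 70.6, 24.4, 40.3 and 77.4 FPKM in muscle of WTAL, WTDR, KOAL and KODR, at 17.6, 33.7, 13.2 and 30.7 in WAT, and at most 0.398 in brain and 0.0589 in liver. The entry of Hoxd10 and Hoxd11 was at 2.74 to 6.06 in muscle, was listed at 0 in every brain and liver group, and in WAT was at 1.57, 1.87, 12.6 and 3.74, with KOAL the highest. These entries mix genes whose shares cannot be separated.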

How the data were processed

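Per the labels and the study's methods, poly-A RNA was sequenced on an Ion Proton instrument, reads were trimmed with cutadapt 1.5 and mapped to GRCm38, and Cuffdiff 2.2.1 estimated expression. The deposited table gives the authors' FPKM per entry and group, with a 95% interval and a status. FPKM divides by transcript length, and genes that share a locus can trade reads. No value per library was used here, so the depth is unknown. Over the groups the median SD was 27.2% to 62.3% of the FPKM.

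The members and lists were chosen with earlier results of these data known. Named are the members that reached 1 FPKM in a group and each member called. An SD was the upper bound less the FPKM, divided by 2. Conditions were compared with a two-sided Wald test on the log2 ratio (delta method, normal distribution), for entries with status OK, both values above 0 and 1 value of at least 1, with Benjamini-Hochberg adjustment per tissue and an FDR of 10%. p-values measure the spread between the libraries as Cuffdiff modelled it. Tissues were compared with limma 3.58.1 in R 4.3.3 on log2(FPKM + 0.1), with conditions as blocks, for a mean of at least 0.5. Both tests were tried on simulated data. Python 3.11.15, numpy 2.4.6, pandas 2.3.3, scipy 1.17.1 and matplotlib 3.10.9 were used. Positions are from GENCODE and promoters from RefSeq tables. Alternatives were other thresholds, pseudocounts, spreads and normalizations, and leaving out each condition. Some genes were left out of the text.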

Additional observations from a re-analysis of the deposited data

Results flagged for a closer look

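Hoxa10 in WAT stood out in 2 tests of a difference between effects. KO less WT was 1.71 under AL and -0.83 (SE 0.33, not called) under DR on the log2 scale, with opposite signs (difference of effects -2.53, SE 0.47, adjusted p = 0.000127 in a Wald test on the authors' intervals). The difference of KODR from KOAL was lower in WAT than in skeletal muscle, at -2.93 (SE 0.41, adjusted p = 2.09e-09). Both values include the WAT group of KOAL, in which Msx1, Pax8 and Epcam were high as well, and the part of other tissue in them was not tested.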

How the results depend on the processing

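Each comparison uses 1 pooled value per group, so no replicate could be left out, and no within-batch value could be had. No paired analysis was possible because the columns hold 1 value per group and carry no replicate number. Of 134 alternative counts 113 stayed within 1.5 times the main count, and no named difference reversed. With a t distribution the calls between conditions fell from 5, 2 and 2 to 0 for KOAL against WTAL, KODR against WTDR and KODR against KOAL. With the SD divided by the square root of the libraries they were 3 for WTDR against WTAL (0 in the main test) and 7 for KODR against WTDR. With intervals that do not overlap, an alternative chosen after the values were seen, 1 was called for WTDR against WTAL.

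Between liver and brain the count of 5 became 2 with a pseudocount of 1, 10 with a pseudocount of 0.01 and 12 with quantile normalization. With the Wald test in each condition, also chosen after the values were seen, 2 members passed in all 4 conditions between WAT and muscle and 0 in the other tissue pairs. Genes listed at 0 cannot be tested there. Members detected in muscle fell from 14 to 7 at 2 FPKM and to 5 with a lower bound above 0, and those in WAT fell from 19 to 3 with that bound. Liver had 2 at 0.5 FPKM and 3 where 1 condition was enough, and brain had 2 where 1 condition was enough. Of the single differences named or near the threshold, 9 were lost with the t distribution and 12 gained under a smaller spread or a pseudocount.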
